A study of Mus musculus with 38 samples.

Results

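Young endogenous Tterm cells were compared with young endogenous Tprog cells by ATAC-seq, which maps open chromatin through the places where the Tn5 transposase can insert sequencing adapters. All libraries labelled as endogenous and 10 to 12 weeks old of these subsets were taken, 5 of Tterm and 4 of Tprog, out of 38 libraries in the series. The cells were CD8+ T cells of wild-type C57BL/6J mice, sorted from B16-OVA tumours, a melanoma line that carries ovalbumin, on day 15. Tterm were sorted as Slamf6- Tim-3+ and are labelled terminally exhausted, and Tprog were sorted as Slamf6+ Tim-3- and are labelled progenitor exhausted. Libraries set beside them were aged endogenous Tterm and Tprog (64 to 68 weeks, 3 each) and young OT-1 Tterm and Tprog (7 and 2), also labelled wild type, whose cells carry a transgenic receptor for ovalbumin and whose hosts the labels do not give. Each library came from 5000 to 50000 sorted cells. Pools of 2 or 3 biological replicates are described, yet an endogenous group has up to 5 libraries. A p-value here therefore measures only how libraries scatter, which may partly be technical. In the endogenous fit that scatter was taken from all endogenous libraries. Besides the young ones these are aged Tterm, aged Tprog and aged Tadys, a group not compared here.

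CD8+ T cells that meet antigen for a long time in a tumour pass into exhaustion. A progenitor subset that depends on TCF-1, the product of Tcf7, renews itself and gives rise to a terminal subset, which carries more inhibitory receptors and cytotoxic proteins and divides little further. Promoters lie at gene starts, and enhancers, which set when and where a gene is used, lie within genes or between them.

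Of 73610 peaks in the deposited table, 71756 had a mean of 10 or more normalized reads over its 17 libraries and were tested, the highest mean left out being 9.998 and the lowest kept 10.003. The young libraries held 9.92 to 87.5 megareads in these peaks for Tterm and 7.61 to 22.4 megareads for Tprog. On the first principal component, with 38.6% of the variance among these libraries, Tterm scored 52.8 to 99.2 and Tprog -120.3 to -92.4. T cell genes were open in both subsets, with means of 1335 normalized reads in Tterm and 1265 in Tprog at the Cd3e promoter peak and 854 in Tterm and 798 in Tprog at that of Cd8a. No tested peak had Ms4a1, Cd79a, Lyz2, Adgre1, Tyr, Foxp3 or Ncr1 as its closest gene. These mark B cells, myeloid cells, melanocytes, regulatory T cells and NK cells. Other markers on the same lists did have tested peaks, among them Pax5 (10), Ebf1 (13), Spi1 (5), Mitf (3), Zbtb7b (5) and Klrb1c (11). Peaks are named by their closest protein-coding gene, up to 100000 bp away, which for peaks between genes is an assumption about the gene served. In bulk samples, fewer cells with an open site and less opening per cell cannot be told apart.

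The sorting genes and Tcf7 check the labels, and the first 2 are no finding, since their proteins set the gates. The Havcr2 promoter peak (encoding Tim-3, mm10 chr11:46452527-46456391) held 1442, 1622, 1510.2, 1651 and 1707 in the 5 Tterm libraries, against 716, 715, 733 and 693 in the 4 Tprog libraries. The Slamf6 promoter peak (chr1:171917235-171918506) held 173, 175, 210.3, 171 and 192 in the 5 Tterm libraries, against 399, 308, 461 and 419 in the 4 Tprog libraries, and the Tcf7 promoter peak (chr11:52280792-52284473) held 212, 190.0, 231, 211 and 248 in the 5 Tterm libraries, against 626, 646, 820.2 and 931 in the 4 Tprog libraries. Library values of the subsets do not overlap at any of the 3 peaks. Log2 differences of Tterm minus Tprog, on normalized reads plus 1, were 1.15 ± 0.10 (adjusted p = 1.64e-09) for Havcr2, -1.09 ± 0.17 (adjusted p = 1.81e-05) for Slamf6 and -1.77 ± 0.14 (adjusted p = 3.73e-10) for Tcf7. Here and below the error of a log2 difference is its SE and that of a mean its SD over the libraries (n = 5 for Tterm and 4 for Tprog), the p-value is limma's with Benjamini-Hochberg adjustment over all 71756 peaks, and a peak is called where it is under 0.05.

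Promoter sequences of genes with large promoter differences are shown to give the DNA at an annotated start within the called peaks. For Tcf7 this start lies inside the gene, whose body reaches to chr11:52283383 on its 5′ side. Each peak is wider than its window, and where in the peak the reads differed was not measured. They are 300 bases each from RefSeq (GRCm38.p6), from 250 bases before to 50 bases after the annotated start, 5′ to 3′ on the strand of the gene. Capitals mark matches to 4 short motifs searched on both strands: the RUNX motif TGTGGT, the T-box motif AGGTGTG, the TCF/LEF motif ATCAAAG and the AP-1 motif TGANTCA. A RUNX match on the other strand reads ACCACA, and RUNX and T-box matches can share the letters TGTG. The first 4 sequences lie in promoter peaks higher in Tterm: Gzmb (chr14:56262285-56262584, minus strand), Gzmf (chr14:56211358-56211657, minus strand), Prf1 (chr10:61297586-61297885, plus strand) and Havcr2 (chr11:46454681-46454980, plus strand).
Gzmb: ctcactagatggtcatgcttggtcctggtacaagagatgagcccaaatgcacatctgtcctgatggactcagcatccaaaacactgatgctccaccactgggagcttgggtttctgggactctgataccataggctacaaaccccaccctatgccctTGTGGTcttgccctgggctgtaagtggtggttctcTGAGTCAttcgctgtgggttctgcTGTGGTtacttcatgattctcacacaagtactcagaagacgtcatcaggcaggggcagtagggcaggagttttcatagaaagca
Gzmf: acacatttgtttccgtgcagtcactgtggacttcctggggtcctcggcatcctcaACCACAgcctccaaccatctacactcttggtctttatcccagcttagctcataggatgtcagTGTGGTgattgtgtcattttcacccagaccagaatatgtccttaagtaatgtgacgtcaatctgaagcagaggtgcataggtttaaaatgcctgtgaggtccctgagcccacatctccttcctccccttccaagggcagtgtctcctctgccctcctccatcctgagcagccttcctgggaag
Prf1: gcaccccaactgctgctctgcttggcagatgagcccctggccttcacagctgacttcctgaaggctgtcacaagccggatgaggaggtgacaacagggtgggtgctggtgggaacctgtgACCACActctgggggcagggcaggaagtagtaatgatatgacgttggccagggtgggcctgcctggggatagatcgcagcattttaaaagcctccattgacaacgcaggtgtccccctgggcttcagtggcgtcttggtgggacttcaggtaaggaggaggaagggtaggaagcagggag
Havcr2: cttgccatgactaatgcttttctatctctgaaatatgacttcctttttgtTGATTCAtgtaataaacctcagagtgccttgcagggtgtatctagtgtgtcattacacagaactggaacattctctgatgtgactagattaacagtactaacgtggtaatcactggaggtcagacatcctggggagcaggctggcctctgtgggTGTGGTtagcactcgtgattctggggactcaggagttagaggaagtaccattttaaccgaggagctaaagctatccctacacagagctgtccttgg
The next 3 lie in promoter peaks lower in Tterm: Tcf7 (chr11:52282965-52283264, minus strand), Id3 (chr4:136143572-136143871, plus strand) and Il6ra (chr3:89913147-89913446, minus strand).
Tcf7: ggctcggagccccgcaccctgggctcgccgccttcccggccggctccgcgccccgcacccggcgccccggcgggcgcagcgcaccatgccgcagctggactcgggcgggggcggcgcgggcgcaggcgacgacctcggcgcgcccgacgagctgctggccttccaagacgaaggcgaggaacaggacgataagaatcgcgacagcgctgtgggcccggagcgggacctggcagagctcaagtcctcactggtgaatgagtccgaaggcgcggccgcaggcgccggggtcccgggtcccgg
Id3: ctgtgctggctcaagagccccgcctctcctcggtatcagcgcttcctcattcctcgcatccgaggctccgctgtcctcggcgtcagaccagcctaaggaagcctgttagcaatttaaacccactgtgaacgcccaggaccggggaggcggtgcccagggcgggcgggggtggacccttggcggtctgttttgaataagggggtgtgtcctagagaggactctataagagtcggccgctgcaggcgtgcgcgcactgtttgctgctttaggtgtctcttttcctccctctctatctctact
Il6ra: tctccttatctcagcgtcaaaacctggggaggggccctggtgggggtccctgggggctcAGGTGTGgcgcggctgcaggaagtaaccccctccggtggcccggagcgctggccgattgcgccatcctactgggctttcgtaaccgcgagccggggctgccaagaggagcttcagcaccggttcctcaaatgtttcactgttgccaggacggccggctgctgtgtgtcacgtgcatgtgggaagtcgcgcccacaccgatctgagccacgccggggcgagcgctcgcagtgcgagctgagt
RUNX letters stand 2 times in the Gzmb and Gzmf windows and once in those of Prf1 and Havcr2, AP-1 letters once each in Gzmb and Havcr2, and T-box letters once in Il6ra. In Tcf7 and Id3 none of the 4 motifs is in the window shown. Over all promoter windows the RUNX letters stood in 11.8% of 3432 windows in higher peaks, 12.9% of 596 in lower peaks, 12.2% of 8216 in tested peaks that were not called and 15.0% of all 21262 windows. The shares for T-box letters were 4.02%, 5.03%, 4.24% and 5.32%, for TCF/LEF letters 2.04%, 2.85%, 2.40% and 3.22%, and for AP-1 letters 4.34%, 5.03%, 4.70% and 6.99%, in the same order.

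Tterm differed from Tprog at 25.6% of the tested peaks. Of these, 10261 peaks (14.3% of all tested) were higher in Tterm and 8115 (11.3%) lower, and the losses were the larger changes. Counts of called peaks by list or by gene below are to be read beside these 2 shares. The median size was 0.66 log2 among higher peaks and 1.15 among lower ones, and a difference of at least 2-fold was found in 2797 of the higher peaks (27.3%) and 4892 of the lower (60.3%). At 8-fold or more there were 18 higher and 99 lower peaks. Lower peaks were also the weaker ones, with a median level of 56.9 normalized reads in Tterm and 135 in Tprog, while higher peaks had 528 in Tterm and 318 in Tprog. All 5 Tterm values lay above all 4 Tprog values in 7254 of the higher peaks (70.7%), and below them in 6318 of the lower peaks (77.9%), where 11.5% and 10.5% of all tested peaks had such separate values.

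Gains and losses lay in different places. Among the 9840 promoter peaks, those overlapping a RefSeq window as above, 2580 were higher (26.2%) and 521 lower (5.29%). Higher promoter peaks differed by little, with a median of 0.41 log2 and 45 of 2580 at 2-fold or more. Outside promoters, 7681 peaks were higher and 7594 lower, with medians of 0.83 and -1.17. The count of higher promoter peaks depended on the scaling: with every library brought to the same total of reads in peaks, 853 of the 2580 were still called higher and 898 promoter peaks were lower. Outside promoters 67.3% of the higher peaks were still called. That scaling moved the median of all peaks to -0.17, against -0.01 as deposited, so nearly every difference became lower and lower peaks could hardly lose their call by it. It gave 6025 higher peaks (8.4%) and 11249 lower (15.7%). The share of a library's reads that fell in promoter peaks was 38.7% to 40.2% in Tterm and 35.8% to 39.7% in Tprog, and its part in these counts was not tested.

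**Figure D1:**
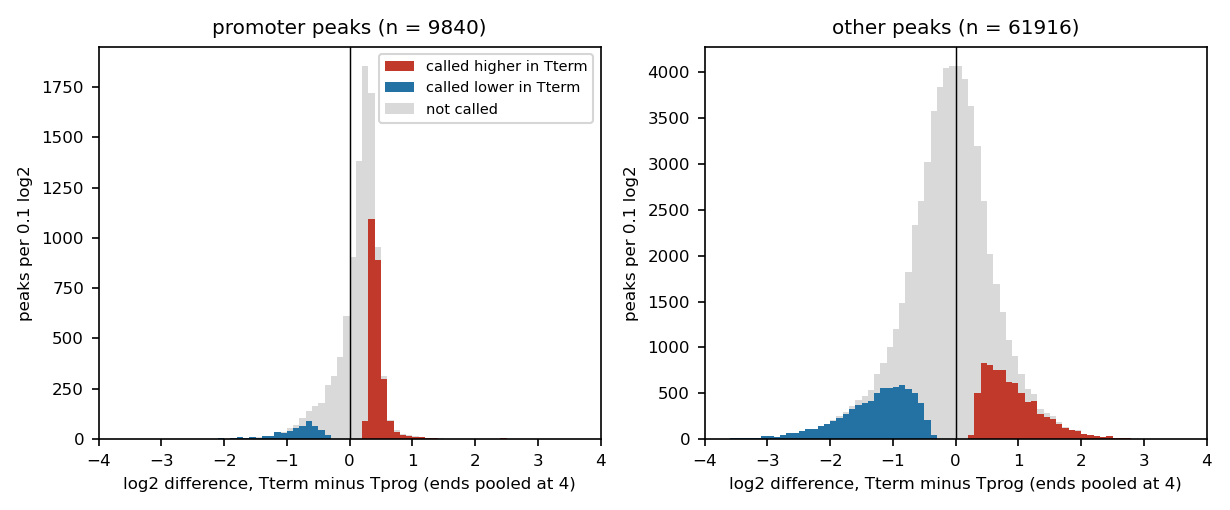
Histograms of the log2 difference, Tterm minus Tprog, for 9840 promoter peaks (left) and 61916 other peaks (right), in steps of 0.1, with called peaks coloured. Higher promoter peaks crowd near their median of 0.41, while other peaks reach far to both sides, with medians of 0.83 for higher and -1.17 for lower ones.

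Promoters and the other peaks of the same gene were called in the same direction in a minority of genes. For 2152 genes with a promoter peak and at least 1 lower peak elsewhere, the promoter was lower in 238 (11.1%), higher in 552 (25.7%) and not called in 1362 (63.3%), where 5.29% of all promoter peaks were lower and 26.2% higher. For 2311 genes with a higher peak elsewhere, the promoter was higher in 896 (38.8%), lower in 66 (2.86%) and not called in 1349 (58.4%). The counts of higher promoters rest on calls of which 853 of 2580 held with equal totals. Of 16541 genes with a tested peak, 8016 had a called one, 4140 of them higher only, 2434 lower only and 1442 both.

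Transcription factors of the progenitor and quiescent state lost accessibility at many sites. Of 251 peaks of 13 genes, 104 were lower in Tterm and 14 higher, with a median of -0.54 where all tested peaks had -0.01. Every gene of the list had a lower peak, and 7 also had a higher one. Besides its promoter, Tcf7 was lower at an intragenic peak (chr11:52273730-52276115), which held 233, 181, 175, 199 and 263 in the 5 Tterm libraries, against 988, 1202, 907 and 993 in the 4 Tprog libraries. The values lie apart by a wide gap (log2 difference -2.29 ± 0.14, adjusted p = 6.61e-12). In all, 6 of 12 Tcf7 peaks were lower. At Id3, an inhibitor of E proteins that marks progenitor cells, 6 of 8 peaks were lower, and the promoter peak (chr4:136143484-136144992) held 225, 219, 205, 210.0 and 234 in the 5 Tterm libraries, against 723, 578, 610.4 and 586 in the 4 Tprog libraries. Here too every Tterm value was below every Tprog value (log2 difference -1.51 ± 0.14, adjusted p = 6.08e-09). A peak 36345 bp from Id3 (chr4:136106328-136107477) had means of 120.5 ± 37.7 in Tterm and 735 ± 40.2 in Tprog (SD, n = 5 and 4; log2 difference -2.66 ± 0.20, adjusted p = 2.45e-10).

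Foxp1 and Bach2, repressors that hold T cells quiescent or in a memory state, carried the most lower peaks of any genes, 32 of 48 and 28 of 43. The strongest of Foxp1 by its p (chr6:99485225-99486781, intragenic) held 91.9, 58.9, 65.6, 56.9 and 81.2 in the 5 Tterm libraries, against 433, 386, 536 and 516 in the 4 Tprog libraries. All Tterm values were far below the lowest Tprog value (log2 difference -2.72 ± 0.19, adjusted p = 1.25e-10). Of 3 Foxp1 promoter peaks, that at the gene end had means of 361 ± 70.7 in Tterm and 505 ± 111 in Tprog and was lower by a smaller amount (log2 difference -0.48 ± 0.15, adjusted p = 0.0218), while the peak at chr6:99026992-99028884 was not called, at -0.11 ± 0.12 (adjusted p = 0.558). The other one, a weak peak at chr6:99266166-99266631, had means of 35.0 ± 12.1 in Tterm and 69.6 ± 16.5 in Tprog (log2 difference -1.02 ± 0.37, adjusted p = 0.0446), a call lost with quantile scaling, with the replicate block, and without any 1 of the 4 Tprog libraries or of Tterm libraries 2, 4 and 5. At Bach2 the largest loss was at chr4:32365222-32365532, with 7.44 ± 2.53 normalized reads in Tterm and 52.9 ± 14.9 in Tprog (log2 difference -2.68 ± 0.45, adjusted p = 5.34e-05), while 1 peak at the end of the gene was higher (log2 difference 0.32 ± 0.10, adjusted p = 0.0215) and was not called with equal totals. Lef1, the close relative of Tcf7, went both ways, with 5 of 20 peaks higher and 5 lower. A peak 52346 bp from the gene (chr3:131056963-131057951) held 983, 1384, 1289.7, 975 and 832 in the 5 Tterm libraries, against 305, 364, 226 and 238 in the 4 Tprog libraries. It was higher in every Tterm library (log2 difference 1.94 ± 0.16, adjusted p = 8.01e-10), whereas an intragenic peak at chr3:131169193-131169617 was lower, with 20.3 ± 6.47 normalized reads in Tterm and 81.3 ± 28.1 in Tprog (log2 difference -1.94 ± 0.34, adjusted p = 9.06e-05). Myb, a regulator of stem-like T cells, had 2 of 15 peaks higher and 3 lower. Its clearest was a higher one 8755 bp from the gene (chr10:21115146-21116175), with 328, 297, 336, 258 and 236 in the 5 Tterm libraries, against 75.6, 118, 108 and 101 in the 4 Tprog libraries (log2 difference 1.53 ± 0.19, adjusted p = 5.25e-07). Its promoter peak was not called, at -0.36 ± 0.17 (adjusted p = 0.124), but was called lower with equal totals, at -0.51 (adjusted p = 0.0227).

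Factors of effector and exhausted cells were mixed. Of 320 peaks of 18 genes, 59 were higher and 48 lower, with a median of 0.04, whereas with equal totals 40 were higher and 62 lower, with a median of -0.11. In this list 13 genes had peaks in both directions. Runx3, which drives the cytotoxic program of CD8+ T cells, had 11 of 30 peaks higher and 3 lower. Its intragenic peak at chr4:135168164-135169936 held 1371, 1608, 1256, 1282 and 1391 in the 5 Tterm libraries, against 447, 483, 451 and 498 in the 4 Tprog libraries. No Tterm value came near the Tprog range (log2 difference 1.55 ± 0.11, adjusted p = 1.25e-10). Its promoter peaks moved less: the one at chr4:135118721-135121403 was called at 0.37 ± 0.11 (adjusted p = 0.012), but not with equal totals at 0.21 (adjusted p = 0.126), and the one at chr4:135151836-135154767 was not called at 0.17 ± 0.10 (adjusted p = 0.222). Prdm1, which encodes Blimp-1, a repressor that drives terminal differentiation, was higher at 8 of 24 peaks, and its promoter peak (chr10:44457966-44459912) held 1125, 1439, 1265, 1185 and 1188 in the 5 Tterm libraries, against 697, 798, 553 and 560.4 in the 4 Tprog libraries. Tterm values stood above all Tprog values (log2 difference 0.94 ± 0.12, adjusted p = 1.48e-06). Of 11 peaks of Id2, the counterpart of Id3 in effector cells, 7 were higher and 0 lower. Nfatc2, a factor that answers calcium signals of the T cell receptor, had 3 higher and 5 lower peaks of 19, the clearest being a higher one 46019 bp from the gene (chr2:168428517-168430391) with means of 866 ± 101 in Tterm and 297 ± 54.6 in Tprog (log2 difference 1.55 ± 0.13, adjusted p = 1.15e-09).

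Tox, Eomes and Nr4a1, often used as marks of exhaustion, had lower peaks and no higher ones. Tox, a factor that sets up the exhausted chromatin state, had 12 of 49 peaks lower, and the clearest (chr4:6934288-6935905, intragenic) held 281, 234, 243, 173 and 174 in the 5 Tterm libraries, against 385, 603, 548 and 403 in the 4 Tprog libraries. The groups did not overlap (log2 difference -1.13 ± 0.19, adjusted p = 5.61e-05). Eomes, a T-box factor, was lower at 3 of 13 peaks, the clearest 84818 bp away (chr9:118392591-118393368), which held 46.9, 22.4, 74.9, 35.6 and 12.5 in the 5 Tterm libraries, against 243, 193, 211 and 140.3 in the 4 Tprog libraries. Every Tprog library was above the Tterm range there (log2 difference -2.54 ± 0.34, adjusted p = 2.26e-06), while the Eomes promoter peak was not called, at 0.27 ± 0.12 (adjusted p = 0.0931). Nr4a1, an orphan nuclear receptor induced by antigen signals, was lower at 2 of 6 peaks. The clearest was intragenic (chr15:101256114-101256621), with means of 96.9 ± 17.7 in Tterm and 209.8 ± 35.0 in Tprog (log2 difference -1.11 ± 0.23, adjusted p = 5.09e-04). The much stronger Nr4a1 promoter peak was not called, with means of 1221 ± 107 in Tterm and 1220 ± 111 in Tprog (log2 difference 7.6e-04 ± 0.10, adjusted p = 0.997).

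**Figure D2:**
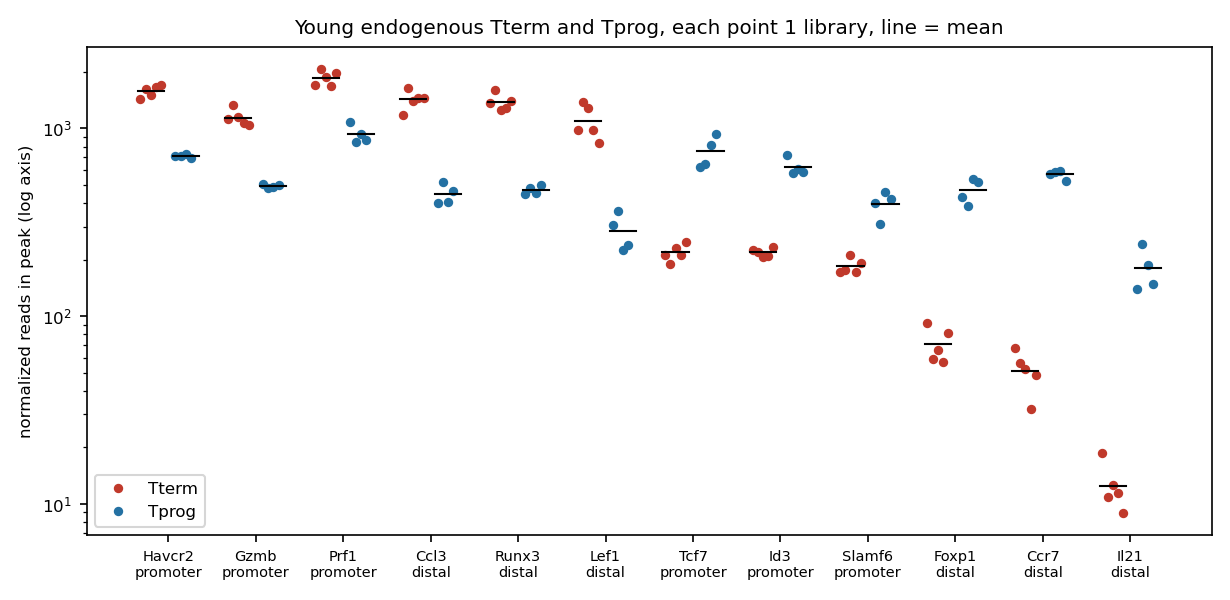
Normalized reads (log axis) in 12 peaks, each point 1 library, with Tterm (n = 5) left of Tprog (n = 4) for each peak and a line at the mean. The first 6 peaks, from Havcr2 to Lef1, are higher in Tterm and the last 6, from Tcf7 to Il21, lower, with no overlap between the groups in any of them.

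Inhibitory receptors and ectoenzymes had more higher than lower peaks: of 95 peaks 33 were higher and 13 lower, with a median of 0.22. Of 12 genes 8 had higher peaks only, among them the sorting gene Havcr2, which gave 5 of the 33 higher peaks. Entpd1 (CD39, which breaks down extracellular ATP) was higher at 9 of 12 peaks, and its intragenic promoter peak (chr19:40659586-40662578) held 966, 1178, 957, 1039 and 1034 in the 5 Tterm libraries, against 437, 612, 465.5 and 454 in the 4 Tprog libraries. Tprog replicate 2 was the highest of its group and still below every Tterm library (log2 difference 1.08 ± 0.13, adjusted p = 6.83e-07). The other Entpd1 promoter peak, shared with Tctn3 (chr19:40611614-40612668), was not called, at 0.19 ± 0.11 (adjusted p = 0.224). Cd244a (2B4) was higher at its promoter (chr1:171558664-171561490), with 508, 619, 645, 648 and 633 in the 5 Tterm libraries, against 269, 285, 199 and 226 in the 4 Tprog libraries. The gap between the groups was wider than the range of either (log2 difference 1.32 ± 0.14, adjusted p = 4.39e-08). Pdcd1, which encodes PD-1, was open in both subsets: its broad promoter peak (chr1:94051042-94056803) held 3294, 4078, 3728, 3399 and 3442 in the 5 Tterm libraries, against 2356, 2419, 2639.5 and 2522 in the 4 Tprog libraries. It was higher in each Tterm library, by a modest amount (log2 difference 0.53 ± 0.10, adjusted p = 1.77e-04), and 4 of 9 Pdcd1 peaks were higher. Lag3, another inhibitory receptor, had 1 of 4 peaks higher, and it was not called with equal totals. Btla, an inhibitory receptor bound by HVEM, ran the other way, with 8 of 11 peaks lower and a promoter peak (chr16:45223120-45225279) of 379, 535, 425, 441 and 417 in the 5 Tterm libraries, against 633, 739, 834 and 682 in the 4 Tprog libraries (log2 difference -0.72 ± 0.13, adjusted p = 1.90e-04). Cd101, a receptor reported on late exhausted cells, had 2 lower peaks and 1 higher of 6, and its promoter peak was lower, with 124, 141, 105, 91.0 and 93.7 in the 5 Tterm libraries, against 196, 242, 214 and 228 in the 4 Tprog libraries (log2 difference -0.998 ± 0.20, adjusted p = 3.52e-04). This is a weak peak of the gene: the means summed over all 6 Cd101 peaks were 3667 in Tterm and 2892 in Tprog.

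Costimulatory and TNF family genes lost peaks. Of 102 peaks 37 were lower and 12 higher, with a median of -0.35. Ligands of the TNF family had lower peaks and no higher ones at Tnfsf8 (5 of 8), Tnfsf11 (8 of 11) and Cd40lg (5 of 8). Tnfsf14 had 1 of 3 lower, which says little where 11.3% of all tested peaks were lower. The Tnfsf8 (CD30 ligand) promoter peak at chr4:63859170-63863235 held 512, 370.1, 551, 464 and 393 in the 5 Tterm libraries, against 974, 942, 1137 and 1021 in the 4 Tprog libraries. Tterm libraries were at less than the lowest Tprog level in each case (log2 difference -1.16 ± 0.13, adjusted p = 1.69e-07). The promoter peak of Tnfsf11 (RANK ligand, chr14:78306285-78308634) held 369, 366, 349, 368 and 314 in the 5 Tterm libraries, against 716, 693, 831 and 706 in the 4 Tprog libraries (log2 difference -1.06 ± 0.12, adjusted p = 1.78e-07). Tnfrsf9 (4-1BB, a costimulatory receptor on activated cells) was mixed, with 5 of 8 peaks higher and 3 lower. An intragenic peak (chr4:150939727-150940607) held 90.0, 72.2, 100.1, 74.3 and 93.1 in the 5 Tterm libraries, against 338, 303, 372 and 379 in the 4 Tprog libraries (log2 difference -2.01 ± 0.19, adjusted p = 7.59e-09), while its promoter peak was higher at 0.44 ± 0.13 (adjusted p = 0.0152), a call lost with equal totals at 0.28 (adjusted p = 0.0875). Icos, a costimulatory receptor, had 7 lower and 3 higher peaks of 19, and the clearest was a higher one 38706 bp away (chr1:61039028-61040197) with means of 376 ± 60.9 in Tterm and 164 ± 13.0 in Tprog (log2 difference 1.18 ± 0.16, adjusted p = 1.69e-06).

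Genes of killing had more higher than lower peaks. Of 112 peaks of cytotoxic granule genes and cytokines 48 were higher and 19 lower, with a median of 0.37. Gzmb, a granzyme that triggers death of the target cell, was higher at 7 of 9 peaks and lower at 0. Its promoter peak (chr14:56261599-56263015) held 1116, 1333, 1153, 1065 and 1045 in the 5 Tterm libraries, against 508, 483, 490.1 and 497 in the 4 Tprog libraries. Values of the 4 Tprog libraries lay within a narrow band far below Tterm (log2 difference 1.20 ± 0.11, adjusted p = 3.40e-09). Prf1, the pore-forming perforin, was higher at 7 of 8 peaks, and its promoter peak (chr10:61296563-61298175) held 1704, 2067, 1881, 1691 and 1978 in the 5 Tterm libraries, against 1078, 845, 938 and 863 in the 4 Tprog libraries (log2 difference 1.00 ± 0.10, adjusted p = 1.94e-08). Gzmk was higher at all 3 of its peaks. The peak 935 bp from its end (chr13:113167960-113170695) held 1491, 1610.2, 1401, 1467 and 1459 in the 5 Tterm libraries, against 685, 775, 671 and 682 in the 4 Tprog libraries (log2 difference 1.08 ± 0.11, adjusted p = 2.55e-08). Its promoter peak rose less, at 0.56 ± 0.19 (adjusted p = 0.0317), and was not called with equal totals at 0.40 (adjusted p = 0.116).

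Cytokine genes divided. Ifng, the interferon gamma gene, had 18 of 27 peaks higher and 0 lower. Its promoter was open in both subsets, with 1547 ± 137 normalized reads in Tterm and 1123 ± 116 in Tprog at chr10:118440455-118443246 (log2 difference 0.46 ± 0.10, adjusted p = 0.00121), and the largest differences were far from it. The peak at chr10:118482544-118482910, 36650 bp past the end of the gene, had 112 ± 50.2 normalized reads in Tterm and 12.1 ± 5.08 in Tprog (log2 difference 3.07 ± 0.52, adjusted p = 5.41e-05). A strong one at chr10:118468840-118471138 had 2206 ± 185 normalized reads in Tterm and 1127 ± 139 in Tprog (log2 difference 0.97 ± 0.11, adjusted p = 2.25e-07). Il2, the growth factor of T cells, was lower at all 6 of its peaks, and its promoter peak (chr3:37125612-37126913) held 76.9, 42.8, 38.7, 58.4 and 69.8 in the 5 Tterm libraries, against 210.3, 131, 163 and 164 in the 4 Tprog libraries. The highest Tterm library was below the lowest Tprog library (log2 difference -1.56 ± 0.24, adjusted p = 1.85e-05). Il21, made by helper T cells and some progenitor cells, had the largest drop of any named peak. At chr3:37183041-37183757, 39002 bp from the gene and lying between it and Il2, there were 18.8, 10.8, 12.6, 11.4 and 8.95 in the 5 Tterm libraries, against 139, 243, 187 and 149 in the 4 Tprog libraries. Tterm libraries were nearly closed at this site (log2 difference -3.75 ± 0.35, adjusted p = 6.36e-09). Its promoter peak was not called, at -0.69 ± 0.27 (adjusted p = 0.0631), although the library values lay apart, and was called lower with equal totals, at -0.85 (adjusted p = 0.0231). In all 5 of 14 Il21 peaks were lower and 2 higher.

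Chemokine genes split by gene. Of 54 peaks 24 were higher and 12 lower, with a median of 0.49. All 4 peaks of Ccl3 and all 4 of Ccl4, inflammatory chemokines, were higher, as were 7 of 8 of Ccl5 and 4 of 7 of Ccl9. A peak 17580 bp from Ccl3 (chr11:83628513-83630263) held 1181, 1647, 1392, 1459 and 1449.9 in the 5 Tterm libraries, against 399, 518, 405 and 464 in the 4 Tprog libraries. Each Tterm value was more than 2-fold the highest Tprog value (log2 difference 1.67 ± 0.15, adjusted p = 2.49e-09). All 12 lower peaks belonged to Xcl1, which draws cross-presenting dendritic cells, and 0 of its 19 were higher. The clearest, 53752 bp away (chr1:164989274-164990415), held 41.3, 41.8, 56.4, 57.6 and 31.0 in the 5 Tterm libraries, against 286, 238, 258 and 246 in the 4 Tprog libraries (log2 difference -2.50 ± 0.21, adjusted p = 1.04e-09), and the promoter peak was lower too, at -0.66 ± 0.17 (adjusted p = 0.00471).

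Chemokine receptor and homing genes differed from one another. Of their 142 peaks 40 were lower and 26 higher, with a median of -0.18. Ccr7, which guides T cells into lymph nodes, was lower at all 11 of its peaks. The peak 15589 bp from it (chr11:99170666-99171753) held 67.5, 56.0, 52.2, 31.8 and 48.4 in the 5 Tterm libraries, against 574, 587, 595 and 521 in the 4 Tprog libraries. Every Tterm library was far below every Tprog library (log2 difference -3.49 ± 0.21, adjusted p = 6.61e-12). Cxcr5, the receptor for entry into B cell follicles, was lower at 7 of 10 peaks, the clearest with means of 32.4 ± 9.68 in Tterm and 175 ± 39.1 in Tprog (log2 difference -2.42 ± 0.27, adjusted p = 1.33e-07). S1pr1, the receptor for leaving tissue, was lower at 8 of 18 and higher at 1. Itga1 (CD49a, a collagen receptor of tissue-resident cells) was higher at 8 of 13 peaks, the clearest (chr13:115096918-115099425) with 900.0, 1079, 963, 1165 and 626 in the 5 Tterm libraries, against 508, 441, 481 and 330.0 in the 4 Tprog libraries (log2 difference 1.09 ± 0.17, adjusted p = 1.32e-05). Its promoter peak was not called, at 0.55 ± 0.23 (adjusted p = 0.0726). Higher peaks and no lower ones were also found at Ccr2 (4 of 7), Cx3cr1 (4 of 7) and Cxcr6 (2 of 2), receptors for inflammatory chemokines, although with equal totals Ccr2 and Cx3cr1 had 1 lower peak each. Lower peaks and no higher ones were found at Cd69, a gene of tissue retention (5 of 15), and Ccr8, a chemokine receptor (1 of 3). Over all tested peaks 11.3% were lower, so the single Ccr8 peak says little about that gene.

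Cytokine receptors gave 28 higher and 25 lower peaks of 163, with a median of -0.01. Il6ra, the receptor for interleukin 6, was lower at 8 of 9 peaks. Its promoter peak (chr3:89912298-89913658) held 208, 177, 187, 217 and 227 in the 5 Tterm libraries, against 456, 448, 396 and 379 in the 4 Tprog libraries. The ranges did not meet (log2 difference -1.04 ± 0.15, adjusted p = 9.29e-06). Il2rb, a chain shared by the receptors for interleukins 2 and 15, was higher at 5 of 7 peaks and lower at 1, the clearest with means of 1912 ± 174 in Tterm and 1217 ± 142 in Tprog (log2 difference 0.65 ± 0.10, adjusted p = 2.58e-05). Il7r, the receptor of a survival cytokine, was lower at 2 of 5 peaks, with means of 33.0 ± 7.54 in Tterm and 116 ± 33.4 in Tprog at the clearest (log2 difference -1.77 ± 0.28, adjusted p = 1.98e-05), and its promoter peak was not called, at -0.15 ± 0.17 (adjusted p = 0.578).

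Tgfbr2, a receptor for TGF-beta, divided by position. The 3 lower peaks inside the gene included chr9:116090927-116092093, which held 114, 131, 132, 108 and 96.7 in the 5 Tterm libraries, against 312, 410.1, 469 and 368 in the 4 Tprog libraries (log2 difference -1.73 ± 0.19, adjusted p = 8.63e-08). Of its 7 higher peaks 5 lay beyond the promoter, at the other end of the gene, among them chr9:116184979-116185298 with 229.7 ± 46.8 normalized reads in Tterm and 77.8 ± 29.4 in Tprog (log2 difference 1.60 ± 0.23, adjusted p = 6.69e-06), and another lower peak lay farther out.

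Genes of T cell receptor signalling and its brakes had 54 higher and 14 lower peaks of 216, with a median of 0.15, whereas equal totals gave 37 higher, 21 lower and a median of -0.0036. Ptpn6 (SHP-1, a phosphatase that damps receptor signals) was higher at an intragenic peak (chr6:124722986-124724611) with 1134, 1423, 1268, 1206 and 1303 in the 5 Tterm libraries, against 728, 577, 667 and 576 in the 4 Tprog libraries. All Tterm values were above all Tprog values (log2 difference 0.99 ± 0.11, adjusted p = 1.39e-07), while its promoter peak was not called, at 0.06 ± 0.20 (adjusted p = 0.864). Rgs1, a brake on G protein signalling, was higher at 10 of 20 peaks and lower at 1, and Ubash3b, a phosphatase that also damps receptor signals, was higher at 11 of 36 and lower at 4. For Lat, the adaptor downstream of the receptor, a peak 22850 bp away (chr7:126339354-126340977) was lower, with 174, 235, 231, 182 and 208 in the 5 Tterm libraries, against 492, 629.9, 619 and 622 in the 4 Tprog libraries (log2 difference -1.52 ± 0.15, adjusted p = 1.58e-08). The Lat promoter peak was slightly higher, at 0.36 ± 0.12 (adjusted p = 0.0286), a call lost with equal totals at 0.20 (adjusted p = 0.206).

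Of the SLAM family, which includes the sorting gene Slamf6, 10 of 48 peaks were lower and 6 higher, with a median of -0.11, and 6 of the 10 lower peaks were those of Slamf6. Ly9 was higher at 2 of 6 peaks, with 0.60 ± 0.16 (adjusted p = 0.00699) at the clearest, which missed the threshold with equal totals at 0.44 (adjusted p = 0.0543). Glycolysis and nutrient transport genes had 22 higher and 7 lower peaks of 93, with a median of 0.18. With equal totals 10 were higher. Slc2a1, the glucose transporter GLUT1, held 2102, 2998, 2596, 2237 and 2518 in the 5 Tterm libraries, against 1475, 1616, 1382 and 1248 in the 4 Tprog libraries at an intragenic peak (chr4:119124943-119127857; log2 difference 0.79 ± 0.11, adjusted p = 3.27e-06). Slc7a5, which imports large neutral amino acids, held 750.0, 1096, 985, 907 and 1168 in the 5 Tterm libraries, against 331, 482, 465.5 and 487 in the 4 Tprog libraries (chr8:121897943-121899358; log2 difference 1.15 ± 0.14, adjusted p = 5.88e-07). Tterm libraries were above all Tprog libraries at both peaks. Cell cycle genes had 11 higher and 2 lower peaks of 43, with a median of 0.15, and with equal totals 2 were higher and 2 lower. The Pcna (DNA clamp of replication) promoter peak was higher at 0.47 ± 0.12 (adjusted p = 0.00347), and with equal totals at 0.31 (adjusted p = 0.0207), but lost its call with quantile scaling at 0.17.

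**Figure D3:**
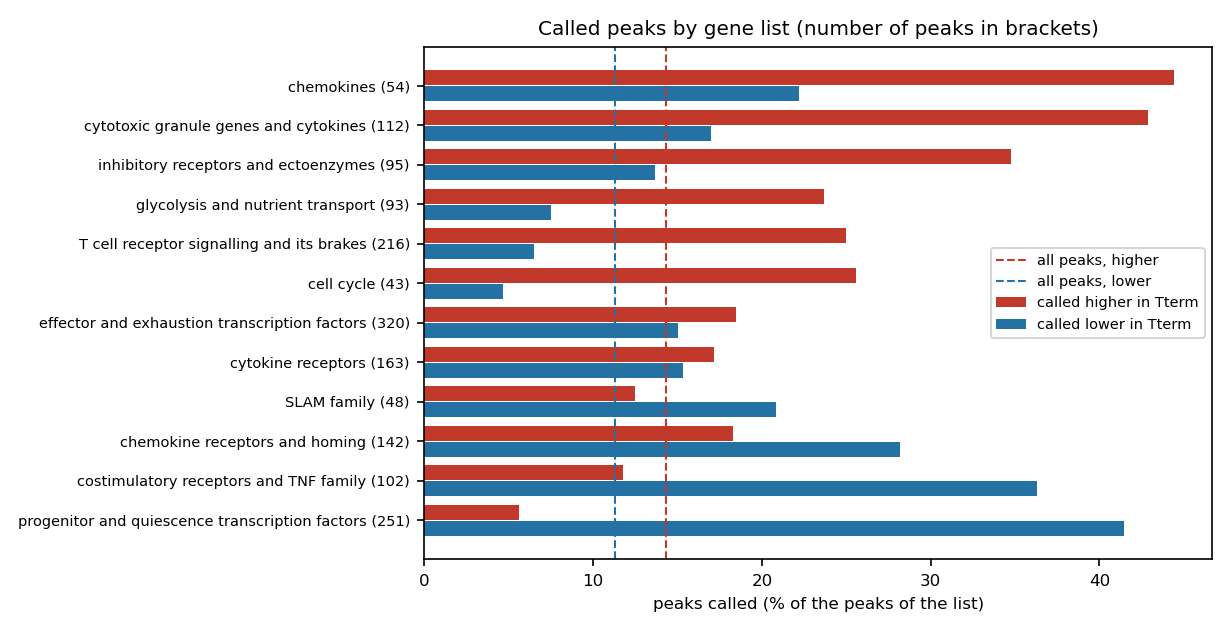
Share of the peaks of each gene list called higher (red) or lower (blue) in Tterm, lists ordered by their median log2 difference, with the number of peaks in brackets. Dashed lines give the shares over all tested peaks, 14.3% higher and 11.3% lower. Cytotoxic, chemokine and inhibitory receptor lists lie above both lines, and farther above the first. Progenitor factors and costimulatory genes lie above the second and below the first. Most other lists also lie above either line or both.

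Counted by gene without regard to the lists, the genes with the most higher peaks included Prex1 (21 of 39), Ifng, Rgs3 and Tmem163 (17 each, of 38 and 25), Filip1 (15 of 25), Atxn1 (14 of 55) and Cmip (14 of 40). Prex1 is an exchange factor for Rac and Rgs3 a regulator of G protein signalling. The genes with the highest counts of lower peaks were Foxp1, Bach2, Inpp4b (25 of 53), Rad51b (25 of 46), Asap1 (22 of 32), Etv6 (20 of 41), Nrp1 (20 of 46) and St6gal1 (18 of 24). Inpp4b is a phosphatase of phosphoinositides, Etv6 an ETS-family repressor, Nrp1 a coreceptor and St6gal1 a sialyltransferase. At least 4 peaks in each direction were found in 42 genes, among them Runx2 (13 higher and 6 lower of 50), Ubash3b, Tgfbr2, Lef1, Ikzf1 (6 and 4 of 28), Tnfaip3 (6 and 4 of 29), Fyn (6 and 13 of 47) and Nrp1 (5 and 20). These counts depended on the scaling. With equal totals Runx2 had 9 higher and 10 lower, Ubash3b 5 and 4, Tgfbr2 5 and 7 and Tnfaip3 4 and 7. Fyn then had 4 and 17 and Nrp1 4 and 27. Lef1 and Ikzf1, with 3 and 5 each, no longer had 4 higher peaks.

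Called peaks also came in rows. The rows named here were chosen after their values were seen, by their number of neighbouring peaks called the same way with no other tested peak between. The longest was 18 lower peaks at Asap1, over 117 kb (chr15:64144390-64261266), with medians of 47.5 normalized reads in Tterm and 179 in Tprog. A row of 16 lower peaks spanned Ccr7 and its neighbours Tns4 and Smarce1 (chr11:99115363-99207662), another of 16 lay inside Foxp1, and 13 lay at St6gal1. Further rows of lower peaks held 17 at Ntrk3 and Mrpl46, 15 at and near Lrig1 and 12 at Nsg2. Of higher peaks, 15 lay between Basp1 and Myo10 (chr15:25494074-25623549), 12 at Ifng, 12 at Tmem163 and 11 at Prf1 and its neighbour Pald1. In aged cells, where 5.37% of all peaks were called lower, 15 of the 18 peaks at Asap1, 15 of the 16 at Ccr7, 12 of the 16 in Foxp1 and 10 of the 13 at St6gal1 were called lower too. So were 13 of the 17 at Ntrk3 and Mrpl46, 11 of the 15 at and near Lrig1 and 11 of the 12 at Nsg2. Of the rows of higher peaks, where 6.75% of all peaks were called higher in aged cells, 10 of 15 between Basp1 and Myo10, 8 of 12 at Ifng, 10 of 12 at Tmem163 and 7 of 11 at Prf1 and Pald1 were called higher. A row of 12 lower peaks over predicted genes on chromosome 14 (Gm3667 and others) had 1 such peak in aged cells. These genes are near-identical copies, so reads there could be split between them, and the sources used here do not say how such reads were counted.

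**Figure D4:**
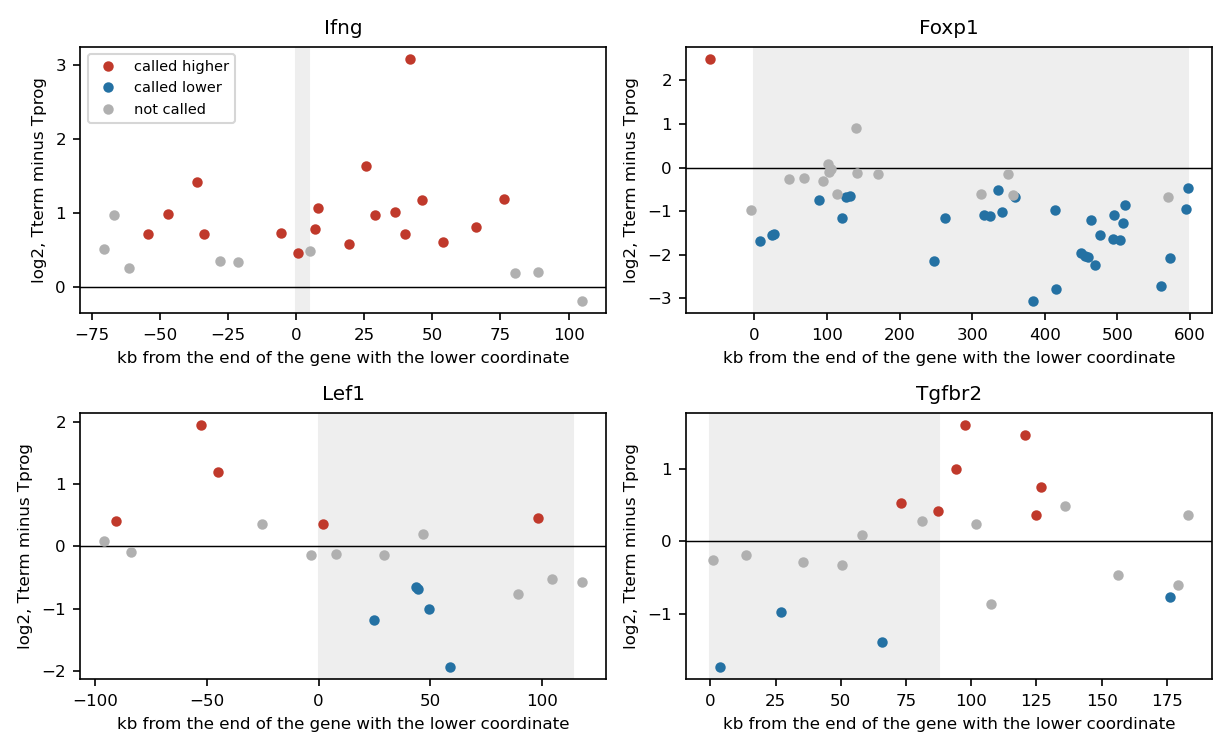
Log2 difference, Tterm minus Tprog, of each tested peak of Ifng, Foxp1, Lef1 and Tgfbr2 against its distance in kb from the end of the gene with the lower coordinate, with the gene body shaded. Ifng has 18 higher peaks and 0 lower, Foxp1 32 lower and 1 higher, and Lef1 and Tgfbr2 have both.

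The largest promoter differences outside the lists included granzymes next to Gzmb. Gzmf (chr14:56211125-56211719) held 124, 114, 102, 78.1 and 87.7 in the 5 Tterm libraries, against 26.0, 11.0, 11.9 and 15.1 in the 4 Tprog libraries, and Gzmd (chr14:56132617-56133002) held 37.5, 32.9, 69.8, 52.3 and 32.2 in the 5 Tterm libraries, against 14.2, 2.76, 13.5 and 4.78 in the 4 Tprog libraries. Every Tterm value was above every Tprog value at both, with log2 differences of 2.64 ± 0.32 (adjusted p = 5.25e-07) for Gzmf and 2.40 ± 0.46 (adjusted p = 2.60e-04) for Gzmd. They are close paralogs, so their reads are uncertain between them. Zfp652, a zinc finger gene, held 602, 902, 787, 751 and 788 in the 5 Tterm libraries, against 113, 271, 96.6 and 139.5 in the 4 Tprog libraries (chr11:95747953-95749069; log2 difference 2.40 ± 0.23, adjusted p = 6.83e-09). Aoah, which inactivates lipopolysaccharide, had 2.23 ± 0.43 (adjusted p = 2.59e-04), 2900026A02Rik 2.198 ± 0.21 (adjusted p = 7.52e-09) and Atp13a4 3.18 ± 0.77 (adjusted p = 0.00275), the last at a weak peak with means of 31.7 ± 9.72 in Tterm and 3.75 ± 4.03 in Tprog.

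On the lower side, the Trpm1 promoter peak (chr7:64184891-64186208) held 37.5, 45.2, 48.0, 33.4 and 47.8 in the 5 Tterm libraries, against 194, 319, 307 and 297 in the 4 Tprog libraries. Its Tterm range was far below that of Tprog (log2 difference -2.68 ± 0.22, adjusted p = 8.01e-10). Trpm1 encodes a cation channel known from melanocytes and retina, and the summed reads in the 12 peaks of the melanocyte and melanoma list were 2053 to 2470.0 in Tterm and 1849 to 2165 in Tprog, with Tyr having no tested peak; their part in this result was not tested. Dapl1 (chr2:59484562-59485452) held 35.6, 19.2, 42.1, 23.5 and 21.5 in the 5 Tterm libraries, against 85.1, 183, 199 and 172 in the 4 Tprog libraries (log2 difference -2.44 ± 0.29, adjusted p = 4.00e-07). Also lower were Mmp10, a matrix metalloprotease, at -2.61 ± 0.30 (adjusted p = 2.63e-07), A530021J07Rik at -2.83 ± 0.49 (adjusted p = 7.05e-05), an intragenic promoter of St6gal1 at -2.37 ± 0.40 (adjusted p = 5.04e-05) and Chil5, a chitinase-like gene, at -2.23 ± 0.57 (adjusted p = 0.00414).

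Some markers of other lymphocytes moved with the subset. The single tested peak of Fcer1g, a signalling adaptor of NK and myeloid cells, had means of 462 ± 65.3 in Tterm and 137 ± 16.0 in Tprog (SD; log2 difference 1.74, adjusted p = 7.75e-09). A Cd4 intragenic peak had 675 ± 110.4 in Tterm and 352 ± 56.6 in Tprog (0.94, adjusted p = 1.03e-05). Over the whole NK cell list, 15 peaks of 3 of 4 genes, summed reads were 4558 to 4915 in Tterm and 3414 to 4017 in Tprog, with Ncr1 having no tested peak. Over the CD4 and regulatory T cell list, 7 peaks of 2 of 3 genes, they were 1916 to 2565 in Tterm and 1478 to 1795 in Tprog, with no tested peak for Foxp3. B cell peaks gave 1489.7 to 1753 in Tterm and 1819.7 to 2306 in Tprog over 24 peaks, of which 5 were lower, and myeloid peaks 1637 to 1778 in Tterm and 1446 to 1809 in Tprog over 9. The 22 peaks of stroma and endothelium gave 3883 to 4361 in Tterm and 3495 to 3708 in Tprog, and of 11 peaks of Pecam1, an endothelial adhesion gene that some T cells use, 6 were higher and 1 lower. Their part in the counts above was not tested.

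Other libraries, none shared with the young endogenous ones, were read at the same peaks. In aged endogenous cells, 8699 peaks differed between Tterm and Tprog (12.1%), 5402 without aged Tterm replicate 3. Of the 10261 peaks higher in young Tterm, 91.5% had the same sign in aged cells, 3675 (35.8%) were called higher and 2 lower, where 6.75% of all peaks were called higher. Of the 8115 lower peaks, 93.7% had the same sign, 3091 (38.1%) were called lower and 2 higher, where 5.37% of all peaks were called lower. Among the higher promoter peaks, 179 of 2580 (6.94%) were called higher in aged cells and 81.9% had the same sign. Among those outside promoters, 3496 of 7681 (45.5%) were called higher and 94.8% had the same sign. The difference between these shares was not tested.

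In young OT-1 cells, from a table with its own peaks and scaling, 6413 of 84091 peaks differed (7.63%), but 2781 without Tprog replicate 1 and 1884 without Tprog replicate 2, each of which leaves 1 Tprog library, and 9128 in sequencing batches 4 and 5 alone. A peak overlapping by at least 50% of both lengths was found for 9775 higher peaks, of which 96.2% had the same sign, and for 6705 lower peaks, of which 96.5% did. Over all matched peaks the share of equal sign was 76.5%, and over all peaks in aged cells it was 69.2%. Of the higher peaks 2422 (24.8%) were called higher in OT-1 cells, where 4.06% of that table was, and of the lower peaks 2340 (34.9%) were called lower, where 3.57% was.

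Values of single peaks can be set side by side. The Ccr7 peak, -3.49 in young endogenous cells, was at -3.10 ± 0.26 in aged and -3.45 ± 0.30 in OT-1 cells. The Tcf7 intragenic peak was at -2.37 ± 0.17 and -2.64 ± 0.25, the Lef1 distal peak at 1.299 ± 0.19 and 2.47 ± 0.30 and the Gzmb promoter peak at 0.94 ± 0.13 and 1.61 ± 0.26, in aged and in OT-1 cells. Each of these was called in the same direction in both. The Pdcd1 promoter peak, at 0.52 ± 0.12 in aged cells, was called there, but not in OT-1 cells at 0.45 ± 0.26 (adjusted p = 0.356). Of 106 named peaks called in young cells, 102 had the same sign in aged cells and 73 were called the same way. Of 100 with an OT-1 peak, 99 had the same sign and 65 were called.

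Whether the difference between subsets itself differed with age was tested as an interaction. By limma 0 of 71756 peaks passed, with 5676 under an unadjusted p of 0.05, by edgeR 0 with 5945 and by DESeq2 20 with 6665. Among the 106 named peaks 25 were under 0.05 before adjustment, and the smallest adjusted p was 0.539. These peaks were chosen by their young difference. The distal Id3 peak had the smallest unadjusted p, with -2.66 in young and -1.54 ± 0.24 in aged cells (interaction 1.12, unadjusted p = 0.00118, adjusted p = 0.539).

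**Figure D5:**
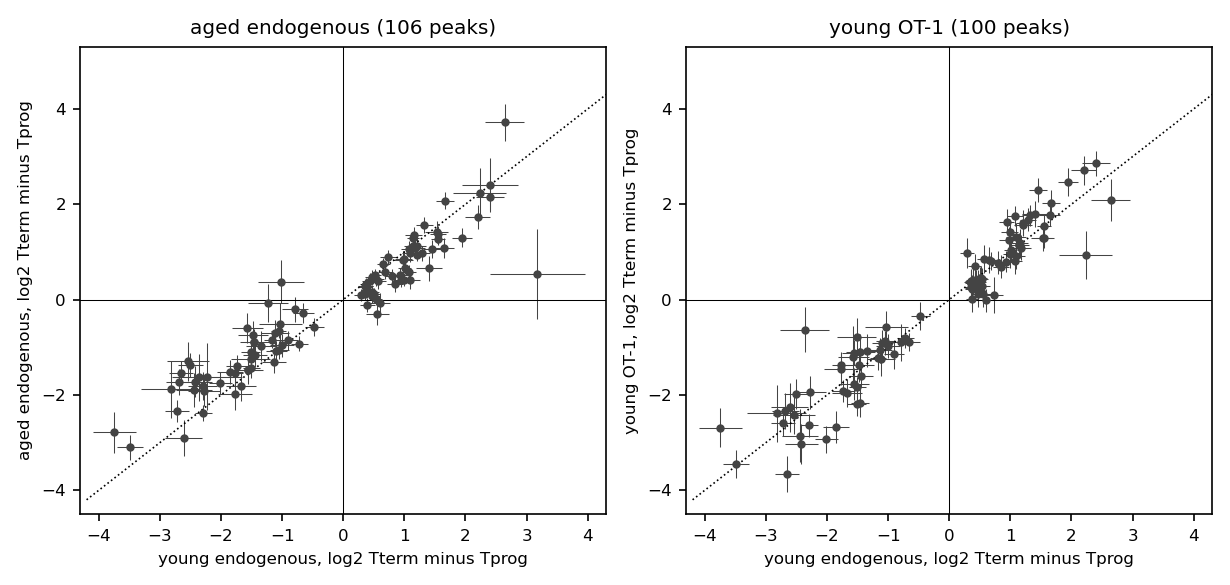
Log2 difference, Tterm minus Tprog, of named peaks called in young endogenous cells (x axis) against the same in aged endogenous cells (106 peaks, left) and young OT-1 cells (100 peaks, right), with SE bars and a dotted line of equality. The sign is the same in both sets of cells except for 4 points in the left panel and 1 in the right.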

How the data were processed

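Chromatin accessibility was measured by paired-end ATAC-seq (50 bp reads). The deposited values are a signal per peak: reads in peaks divided by size factors by the authors. Per the submitters' processing notes, the build was mm10 and the tools named are MACS2 2.1.1, Bowtie2 2.2.9, DESeq2 1.28.1, SAMtools 1.3.1 and Picard 2.8.0. Whole reads could be recovered from 100.0% of the values within 0.05 of a whole number. All endogenous libraries carry the same label for sequencing batches 1 and 2, so no term for batch could be fitted to them. The OT-1 fit had a term for batch 6.

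The main test was limma 3.58.1 (R 4.3.3) with an intensity trend on log2(normalized reads + 1), over all 17 libraries of the table, with Benjamini-Hochberg adjustment over 71756 peaks of table mean 10 or more. The aged endogenous Tadys libraries are among these 17 and entered both the table mean and the fit. With the young Tterm and Tprog libraries alone, 11000 peaks were called higher and 8901 lower. On the recovered reads, edgeR 4.0.16 called 18976 peaks and DESeq2 1.42.0 called 21025. Peaks count as at the gene end up to 1000 bp from it, and distances run to the gene body. Of 21896 protein-coding genes 17491 have a RefSeq promoter window. OT-1 peaks were matched by an overlap of 50% of both lengths. The script was tested on simulated data.

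Named genes were, in each list, up to 3 per direction with the lowest adjusted p, with their promoter peaks, the 6 largest promoter differences in each direction with separate library values and, in the higher group, a mean of at least 30, the 8 genes with the most called peaks in each direction, genes with at least 4 called peaks in both directions, and Slamf6, Havcr2, Tcf7, Tox and Pdcd1. Further genes are given by the counts of their peaks. Some genes that the rule names are not reported here. Genes and lists were chosen with earlier results of these data known. Alternatives covered the scaling, pseudocount, filter, test, libraries in the fit, gene distance, replicate block and leaving out each library. Figures were drawn with matplotlib 3.10.9 (Python 3.11.15).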

Additional observations from a re-analysis of the deposited data

Results flagged for a closer look

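In 260 groups of 4 or 5 libraries, 17 had 1 library whose gap to the nearest other was a large share of the group's range; chance alone flags about 1 in 20. In 6 of them Tprog replicate 2 was the highest Tprog library: 459 normalized reads at the intragenic Entpd1 peak against 342 to 359 in the others, 612 at its intragenic promoter peak against 437 to 465.5, 775 at Gzmk against 671 to 685, 532 at Ccl4 against 336 to 352, 346 at Il18r1 against 234 to 248, and 1429.8 at Il2rb against 1137 to 1153. These are peaks higher in Tterm, and in each of them replicate 2 was still below every Tterm library.

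Tprog replicate 1 was low at the Lat peak outside its promoter (492 against 619 to 629.9), at Slc7a5 (331 against 465.5 to 487) and at the Slamf1 promoter (225 against 321 to 330.1), and high at the Ccne1 promoter (1600.0 against 1024 to 1079). Tprog replicate 3 was high at the Tnfsf11 promoter (831 against 693 to 716) and at an intragenic Cblb peak (238 against 142 to 152). Tprog replicate 4 was high at an intragenic Ccne1 peak (140.3 against 109 to 114) and low at an intragenic Lck promoter (609.9 against 716 to 728). Tterm replicate 1 was low at the Cd244a promoter (508 against 619 to 648), at the Ptpn6 promoter (122 against 144 to 151) and in the share of its reads in peaks called higher (36.4% against 38.2% to 38.6%); it is also the Tterm library with the fewest reads.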

How the results depend on the processing

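The count of peaks higher in young Tterm changed by over 1.5 times only with equal totals, at 6025 in place of 10261; under the other settings it lay within that factor, for example 7315 with quantile scaling, 10201 with a pseudocount of 0.5 and 10501 at a table mean of 30 or more. Leaving out 1 young library gave 7845 to 10342 higher and 6358 to 8037 lower peaks. With the replicate block 8832 were higher and 6819 lower. After removal of each group's mean, same-numbered libraries correlated at -0.036, -0.198, 0.032 and -0.031. Other pairs ran from -0.290 (Tterm 5 with Tprog 3) to 0.269 (Tterm 5 with Tprog 2). Such values cannot tell whether libraries of the same number share a pool. Leaving out 1 library gave 5402 (aged Tterm replicate 3) to 7777 called peaks in aged cells and 1884 to 7305 in OT-1 cells. For the test of age by subset it gave 0 to 1, and DESeq2 gave 20. Quantile scaling changed the sign of 2 promoter peaks that were called with or without it. Nr4a1 went from 7.6e-04, where it was not called, to -0.30, and Slc3a2 from 0.29 to -0.025. The cause was not tested. A further 30 sign changes over the settings were of named peaks called in neither of the fits compared. Of 106 called named peaks, 84 kept call and sign in all 19 settings and 22 lost the call in at least 1, among them promoter peaks of Lef1, Foxp1, Runx3, Gzmk and Lat. Weak peaks have the fewest reads, so changes there are the least precise, and library depth differed from 9.92 to 87.5 megareads in Tterm and 7.61 to 22.4 in Tprog.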
